A study of Homo sapiens with 6 samples.

Results

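Messenger RNAs with reported adenosine-to-inosine editing in repeats of the 3′ untranslated region (UTR) were examined after an editing enzyme had been raised. The cells were MDA-MB-231, a human triple-negative breast cancer line. The group holds 6 genes chosen by name, AHR, METTL7A, MDM4, NUP43, F11R and PSMB2, out of 60461 in the count table. All 6 passed the low-count filter that left 18899 genes for testing. Cells labelled ADAR1 p110 received an adenovirus coding for that form of the human enzyme ADAR1, and control cells an adenovirus coding for enhanced green fluorescent protein (GFP). Each group comprised 3 libraries of total RNA, and both viruses were used at 200 infectious units per cell; the medium was changed at 16 h and RNA was collected at 48 h. The labels call the libraries of a group biological replicates. Cells that saw no virus were not analysed here.

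In paired RNA strands ADAR1 turns adenosine into inosine, which ribosomes and sequencers read as guanosine. In human cells most of its substrate is formed by Alu elements, short repeats derived from the 7SL RNA of the signal recognition particle, where 2 copies in opposite orientation within one transcript fold back on each other. Editing in 3′ UTRs leaves the protein sequence as it was and has been linked to nuclear retention, microRNA sites and transcript stability. The deposited values are gene counts, so editing itself was not measured, and transcripts that end before the repeats were not told apart from those that contain them.

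Alu-like elements were located in the longest annotated 3′ UTR of each gene by alignment to 7SL RNA. Every one of the 6 genes had elements on both strands of its 3′ UTR, a feature of 1106 of 19304 annotated protein-coding genes, or 5.73%. The 6 genes were chosen for reported editing in repeats of the 3′ UTR, so their share is not a result of these data. AHR carried 2 elements and NUP43 and F11R 3 each. METTL7A and PSMB2 carried 4 each, and MDM4 carried 10 in a 3′ UTR of 9419 bases. The same-strand element of F11R aligned over only 70 bases, and with elements of at least 150 bases, a limit chosen after the data were seen, 5 of the 6 genes and 707 genes in all (3.66%) kept both orientations. The elements of METTL7A lay in a 3′ UTR of 2360 bases and those of PSMB2 in one of 3726 bases. Folding of these repeats in the cells was not measured.

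**Figure D1:**
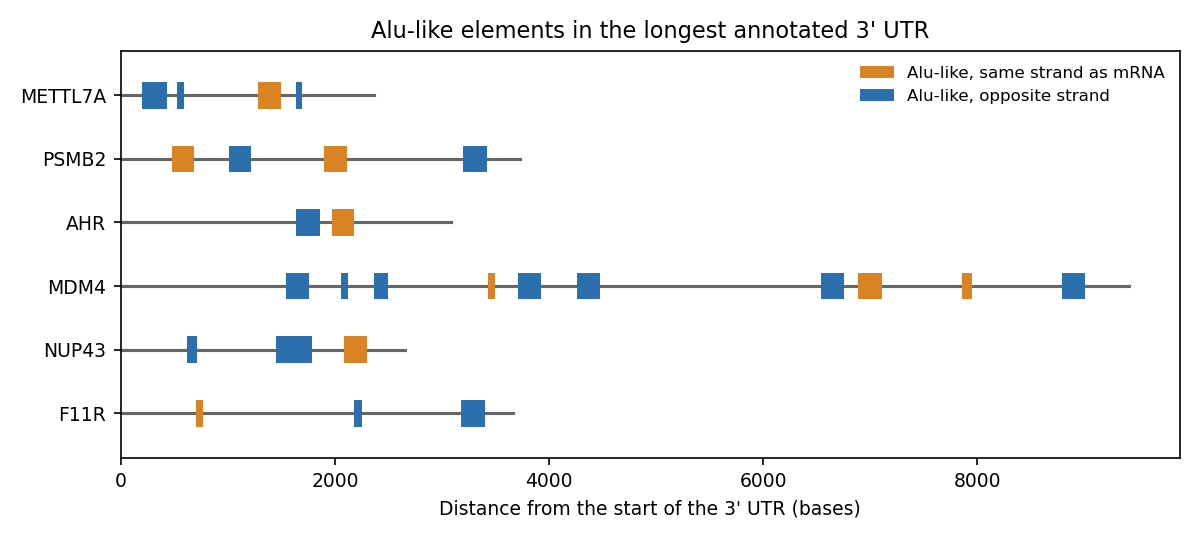
Alu-like elements in the longest annotated 3′ UTR of each of the 6 genes, by distance from the start of the 3′ UTR in bases, with elements on the strand of the mRNA in orange and those on the opposite strand in blue. Each gene has both colours, from 2 elements in AHR to 10 in MDM4, and the grey line ends at the end of the 3′ UTR.

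The libraries held 72741235 to 99589278 counts. The overexpressed gene ADAR stood at 1006 ± 13.2 CPM in ADAR1 p110 libraries and 267 ± 8.67 CPM in GFP libraries (SD, n = 3 each). CPM here are read counts scaled to library depth after TMM normalisation. Endogenous and viral ADAR transcripts were not told apart. The first principal component, with 33.1% of the variance, parted the groups, with ADAR1 p110 at -25.8 to -18.6 and GFP at 19.2 to 25.5. On the second principal component, with 21.8% of the variance, ADAR1 p110 replicate 1 and GFP replicate 2 lay apart from the other 4 libraries. All 8 markers of this mesenchymal-like line were at or above 1 CPM in every library, and of the 6 luminal markers 3 were, while ESR1, PGR and FOXA1 were below 0.1 CPM. Of 5 leukocyte markers 1 was, CD14, and CD3E had no count. Endothelial markers summed to 7.61 to 8.19 CPM with ADAR1 p110 and 9.96 to 10.9 CPM with GFP, nearly all of it from KDR. The markers of the line summed to 6564 to 6656 CPM with ADAR1 p110 and 5936 to 6160 CPM with GFP. VIM, AXL, CAV1, KRT18 and ANXA1 were higher in every ADAR1 p110 library than in any GFP library. CD44, EGFR and FOSL1 overlapped between the groups. The luminal list, mostly KRT19 and ERBB2, summed to 497 to 561 CPM with ADAR1 p110 and 453 to 461 CPM with GFP. Leukocyte markers summed to 4.04 to 4.74 CPM with ADAR1 p110 and 4.26 to 5.36 CPM with GFP, and fibroblast markers to 62.6 to 71.2 CPM with ADAR1 p110 and 64.5 to 70.3 CPM with GFP. These sums are scaled by library size, and their part in the results was not tested. In bulk RNA a change in level per cell and a change in the share of cells cannot be told apart.

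The comparison asked whether raising ADAR1 p110 was accompanied by a change in the abundance of these mRNAs. One gene, METTL7A, was higher, and none was lower at an adjusted p under 0.05 by edgeR's quasi-likelihood test, where 4.91% of all tested genes were called, 1.95% higher and 2.96% lower. At an unadjusted p under 0.05, reached by 18.6% of tested genes in either direction, PSMB2 was lower and METTL7A higher. DESeq2, which called 6.89% of all genes, called METTL7A higher and PSMB2 lower, and limma-voom, with 5.07%, called METTL7A. The share of all genes called by edgeR was 4.57% without a filter, 5.23% with scaling by library size alone (510 higher and 479 lower, against 368 and 559), 4.88% with ADAR counts removed and 2.69% with the replicate number as a block. It was 9.19%, 2.52% and 2.26% without ADAR1 p110 replicate 1, 2 or 3, and 2.06%, 3.41% and 2.4% without GFP replicate 1, 2 or 3. It reached 13.4% without ADAR1 p110 replicate 1 and GFP replicate 2 at once. METTL7A and PSMB2 were also the 2 genes whose groups did not overlap, against 24% of all tested genes. The median log2 fold change of the 6 genes was -0.01, beside 0.0048 over all tested genes (0.01 and 0.03 with scaling by library size alone), and the largest change was 1.25-fold.

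METTL7A encodes a methyltransferase of the endoplasmic reticulum and lipid droplets (ENSG00000185432.11_2, hg19 chromosome 12, 51317255 to 51326300, plus strand). Its reads numbered 894, 1134 and 813 with ADAR1 p110, against 795, 655 and 872 with GFP, each in the order of replicates 1 to 3, as in the values that follow. Scaled to depth these were 11.8, 11.5 and 10.5 CPM with ADAR1 p110, and 9.16, 9.03 and 8.86 CPM with GFP. Each ADAR1 p110 library was above each GFP library, and the SD was 0.662 CPM with ADAR1 p110 and 0.149 CPM with GFP. The level was 24.9% higher with ADAR1 p110 (95% interval 11.5% to 39.96%), which is 0.32 ± 0.074 (SE) on the log2 scale and passed the threshold (edgeR adjusted p = 0.0324). The call was lost without ADAR1 p110 replicate 2 (edgeR adjusted p = 0.12) and without GFP replicate 1, 2 or 3 (0.11, 0.0766 and 0.123), while the log2 fold change stayed between 0.29 and 0.37. No other gene of the table overlaps METTL7A.

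PSMB2 encodes a beta-type subunit of the 20S proteasome core that has no protease site of its own (ENSG00000126067.11_2, hg19 chromosome 1, 36065145 to 36107445, minus strand). It had 146, 150 and 147 CPM in the ADAR1 p110 libraries, against 174, 158 and 173 CPM in the GFP libraries. The ADAR1 p110 libraries all lay below the GFP libraries, the nearest being GFP replicate 2. The difference was -12.3% (95% interval -19.1% to -5.01%), or a log2 fold change of -0.19 (SE 0.052), and it missed the threshold (edgeR adjusted p = 0.0681). It passed without GFP replicate 2 (log2 fold change -0.23, edgeR adjusted p = 0.0457) and without that library and ADAR1 p110 replicate 1 together (-0.22, 0.00113). The threshold was missed without ADAR1 p110 replicate 1, 2 or 3 (edgeR adjusted p = 0.0508, 0.176 and 0.223). It was also missed without GFP replicate 1 or 3 (0.264 and 0.256) and with the replicate number as a block (0.213).

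**Figure D2:**
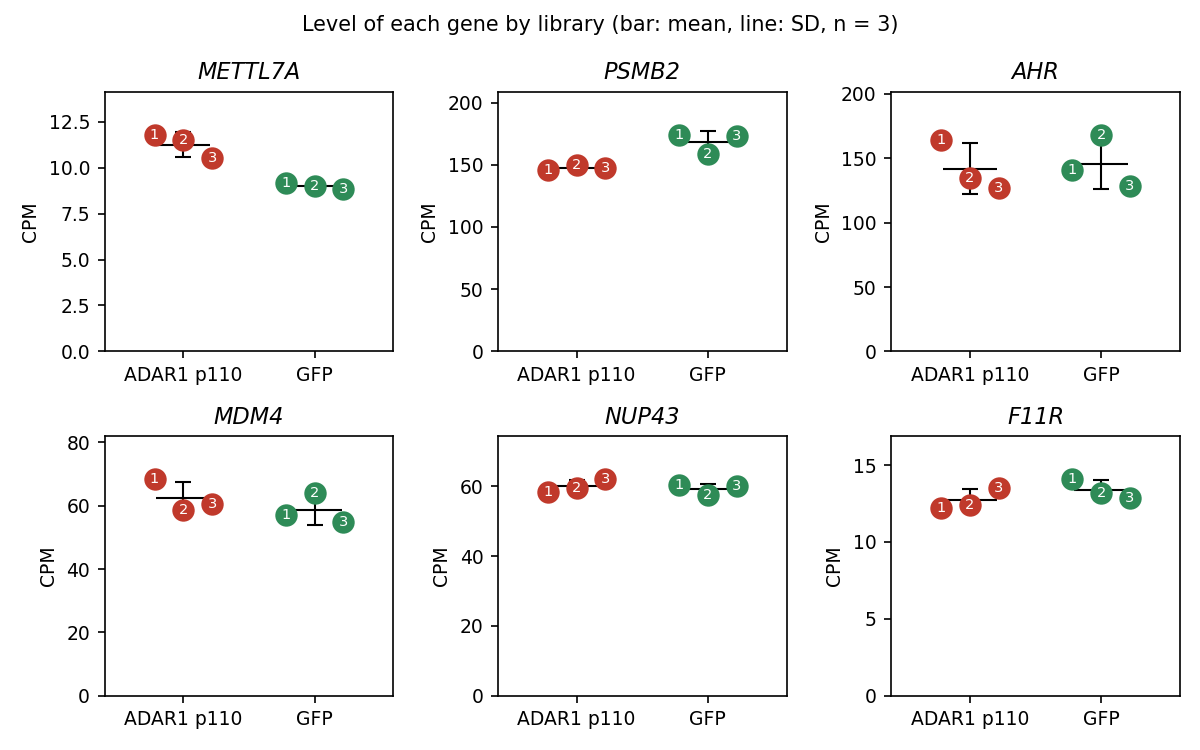
CPM of the 6 genes in each library (red, ADAR1 p110; green, GFP), with replicate numbers inside the points, a horizontal bar for the mean and a vertical one for the SD of 3 libraries. The groups part for METTL7A and PSMB2 and overlap for the others, and AHR is highest in ADAR1 p110 replicate 1 at 164 CPM and GFP replicate 2 at 168 CPM.

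AHR encodes the aryl hydrocarbon receptor, a transcription factor switched on by dioxins and tryptophan products that induces xenobiotic-metabolising enzymes (ENSG00000106546.12_2, hg19 chromosome 7, 17338246 to 17385776, plus strand). It had 164, 134 and 127 CPM in the ADAR1 p110 libraries, against 141, 168 and 129 CPM in the GFP libraries. The groups overlapped fully, and the highest value of each group came from the library set apart on the second principal component; the part of that component in AHR was not tested. Its coefficient of variation within groups was 13.8%, at percentile 94.9 of the 10757 genes with at least 5 CPM, whose median was 5.43%. The difference was -2.64% with a 95% interval of -17.4% to 14.8% (log2 fold change -0.04, SE 0.11, edgeR adjusted p = 0.901). Leaving out single libraries moved its log2 fold change between -0.16 and 0.08, positive without ADAR1 p110 replicate 2 or 3 or GFP replicate 2. Without both libraries that stand apart it was -0.04. The protein-coding gene AC019117.3 on the same strand shares 46858 bases with AHR and held 0 counts. The assignment of reads in that overlap was not tested.

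MDM4 encodes a relative of the ubiquitin ligase MDM2 (ENSG00000198625.12_2, hg19 chromosome 1, 204485507 to 204527248, plus strand). It had 68.3, 58.8 and 60.7 CPM in the ADAR1 p110 libraries, against 57.1, 64.1 and 54.9 CPM in the GFP libraries. The highest value of each group again came from ADAR1 p110 replicate 1 and GFP replicate 2, and the groups overlapped. The difference was 6.60% with a 95% interval of -4.95% to 19.5% (log2 fold change 0.09, SE 0.075, edgeR adjusted p = 0.577). Across the 6 libraries AHR and MDM4 had a Pearson r of 0.80, a description over points that share library and depth. Among the 15 pairs of the 6 genes r was farthest from zero for AHR with NUP43 (-0.87) and METTL7A with PSMB2 (-0.86). The groups part in opposite directions for METTL7A and PSMB2, so the r of that pair includes the difference between groups.

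NUP43 encodes a subunit of the Y complex, a scaffold of the nuclear pore (ENSG00000120253.13_2, hg19 chromosome 6, 150045451 to 150070801, minus strand). It had 58.5, 59.6 and 62.0 CPM in the ADAR1 p110 libraries, against 60.4, 57.7 and 60.0 CPM in the GFP libraries. Its values interleaved between the groups and varied least within them among the 6 genes, by 2.73%. The difference was 1.17% with a 95% interval of -6.54% to 9.51% (edgeR adjusted p = 0.913), the narrowest interval of the 6 on the log2 scale. PCMT1 on the other strand shares 223 bases with NUP43 and held 150% as many counts, and how reads in that overlap were assigned was not tested.

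F11R encodes junctional adhesion molecule A, a tight junction protein that is also found on platelets (ENSG00000158769.17_3, hg19 chromosome 1, 160965001 to 160991138, minus strand). It had 12.2, 12.4 and 13.5 CPM in the ADAR1 p110 libraries, against 14.1, 13.2 and 12.8 CPM in the GFP libraries. ADAR1 p110 replicate 3 lay among the GFP libraries. The difference was -4.89% with a 95% interval of -14.9% to 6.33% (log2 fold change -0.07, SE 0.073, edgeR adjusted p = 0.664). The protein-coding gene AL591806.3 on the same strand shares 23392 bases with F11R and held 53 counts over all libraries. How reads in that overlap were assigned, and its part in the level of F11R, was not tested.

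**Figure D3:**
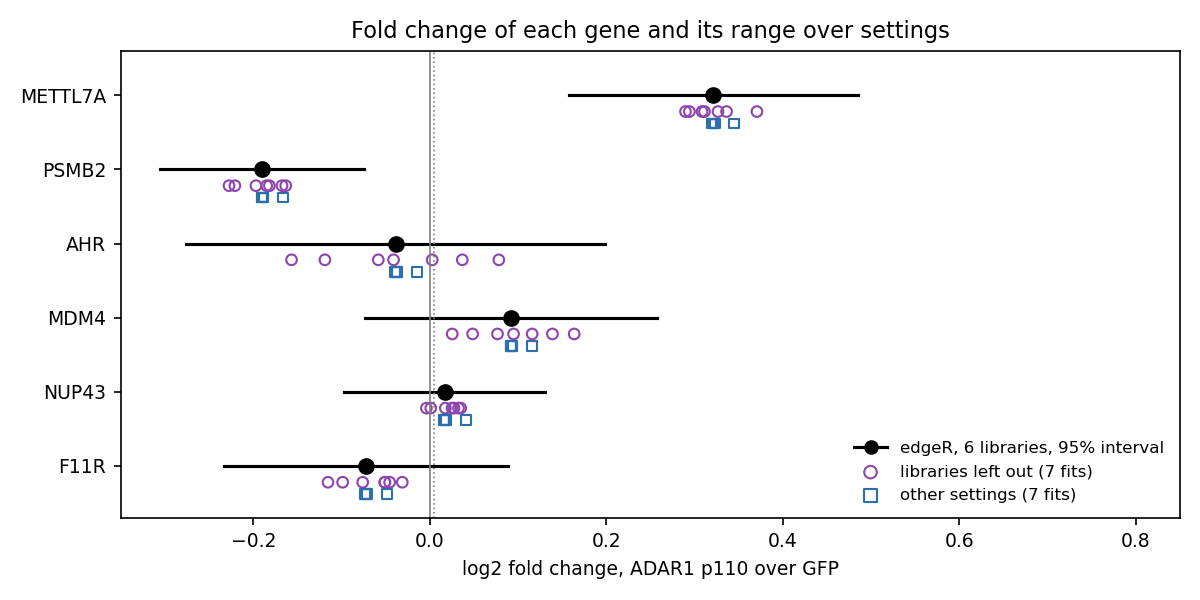
Log2 ratio of ADAR1 p110 to GFP levels along the horizontal axis for the 6 genes, with the edgeR estimate and its 95% interval in black, fits with libraries left out as purple circles and other settings as blue squares, zero as a solid line and the median of all tested genes as a dotted line. METTL7A stays between 0.29 and 0.37 and PSMB2 between -0.23 and -0.16, whereas the estimates of AHR lie on both sides of zero.

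Levels per kilobase of gene length set the genes in nearly the same order in both groups. PSMB2 was the highest, with 30.5 ± 0.403 CPM per kb in ADAR1 p110 libraries and 34.7 ± 1.79 CPM per kb in GFP libraries, at percentile 92.7 of tested genes. AHR followed with 21.3 ± 2.97 and NUP43 with 13.5 ± 0.403 CPM per kb in ADAR1 p110 libraries, against 21.9 ± 3.003 and 13.4 ± 0.331 CPM per kb in GFP libraries. MDM4 had 5.68 ± 0.458 CPM per kb with ADAR1 p110 and 5.33 ± 0.435 CPM per kb with GFP (SD, n = 3 each throughout). These 4 did not overlap with their neighbours in any library.

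The lowest places were held by METTL7A and F11R, near percentile 50 of tested genes, and their order differed between the groups. METTL7A had 2.88, 2.82 and 2.58 CPM per kb in ADAR1 p110 libraries, where F11R had 2.41, 2.45 and 2.67 CPM per kb and the ranges overlapped. In GFP libraries METTL7A had 2.24, 2.21 and 2.17 CPM per kb and lay below F11R, which had 2.77, 2.61 and 2.53 CPM per kb. The ratio of METTL7A to F11R was thus 1.195, 1.15 and 0.965 with ADAR1 p110, and 0.809, 0.848 and 0.857 with GFP, a ratio picked after its values were seen and not tested.

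**Figure D4:**
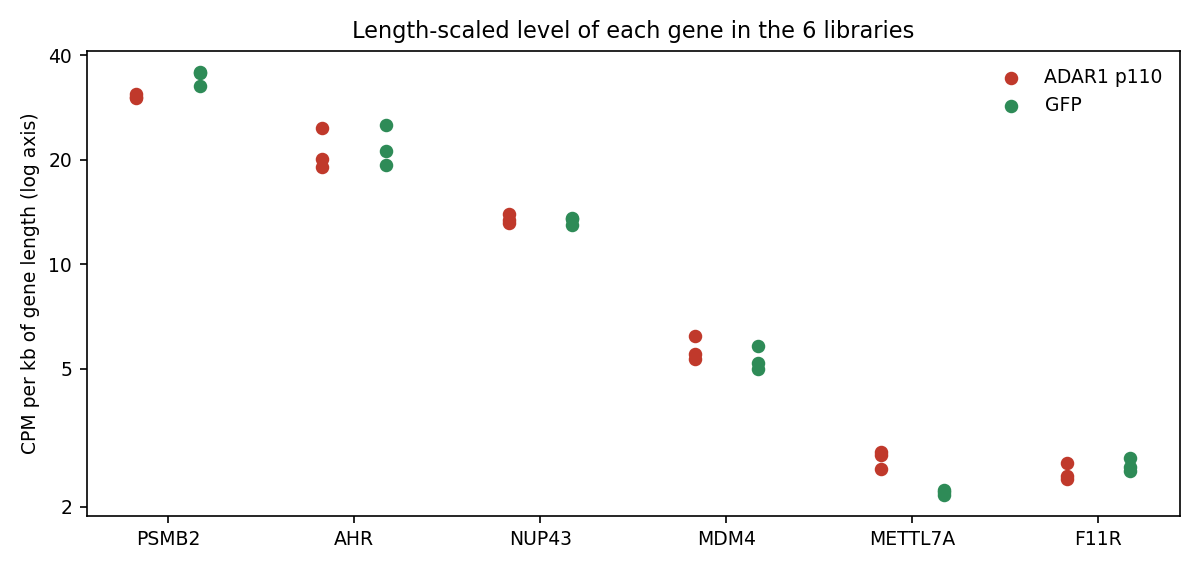
Level of the 6 genes as CPM per kilobase of gene length on a log axis, with each of the 3 ADAR1 p110 libraries in red and each of the 3 GFP libraries in green. PSMB2 is the highest at 30.1 to 30.9 with ADAR1 p110 and 32.7 to 35.9 with GFP, and METTL7A and F11R are the lowest.

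Among 10757 genes with at least 5 CPM, those whose log2 CPM ran most like a member over the 6 libraries were listed by Pearson r, a description without a test. METTL7A was nearest to CRNDE, a long noncoding RNA that was itself called higher (r = 0.998, log2 fold change 0.34, edgeR adjusted p = 0.0421), and to KCTD18 (r = 0.994). PSMB2 was nearest to ACOX3 and RASSF5 (r = 0.998 for each). AHR was nearest to YWHAG (r = 0.993) and FAM210A (r = 0.992). MDM4 was nearest to CUL5 (r = 0.996) and AGPS (r = 0.993). NUP43 was nearest to ZNF766 (r = 0.997) and MPHOSPH10 (r = 0.989), and F11R to AL355916.1 (r = 0.981) and MTMR11 (r = 0.978). With so many genes and 6 libraries, values this close to 1 are reached by some gene for every member.

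Genes set beside the members were read from lists chosen by textbook role, with earlier results of these data known. Of 5 tested RNA editing enzymes ADAR itself rose and none fell (list median -0.07), and the other catalytic ADAR, ADARB1, had 21.8 CPM with ADAR1 p110 and 24.0 CPM with GFP on average (edgeR adjusted p = 0.249). Of 9 tested mRNAs with other reported 3′ UTR Alu editing, 1 fell and none rose by edgeR, beside 2.96% and 1.95% of all tested genes. Their median log2 fold change was 0.00055. The one that fell was CTSS, the lysosomal protease cathepsin S, with 18.2, 15.9 and 16.7 CPM in ADAR1 p110 libraries and 34.5, 34.7 and 32.8 CPM in GFP libraries (log2 fold change -1.01, edgeR adjusted p = 6.76e-06). It stayed called in all 14 alternatives. MDM2 stood at 188 ± 6.79 CPM with ADAR1 p110 and 187 ± 7.34 CPM with GFP (log2 fold change 0.0071), and its longest 3′ UTR had 5 Alu-like elements, all on the opposite strand. CYP20A1, with 20 elements, had a log2 fold change of 0.08 and MAVS, with 11, of 0.02, and neither passed. NICN1 and LIN28A, with 2 and 21 counts over all libraries, were not tested. Of 14 proteins that bind or process edited or Alu-bearing RNA none was called by edgeR, 2 having an unadjusted p under 0.05, while DESeq2 called 1 higher and limma-voom none. The most abundant, the splicing repressor HNRNPC, had 839 ± 52.1 CPM with ADAR1 p110 and 902 ± 19.3 CPM with GFP.

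The circuit around MDM4 held the most called genes of the lists, with 4 of 14 lower and none higher and a median log2 fold change of -0.05, where 2.96% of all tested genes were lower. At an unadjusted p under 0.05, 4 were lower and 2 higher, and without ADAR1 p110 replicate 1 and GFP replicate 2 edgeR called 4 lower and 1 higher. The fit without those 2 libraries called 1424 of all 19465 tested genes lower and 1181 higher. CDKN1A, the cell cycle inhibitor p21, had 77.4, 87.3 and 82.2 CPM in ADAR1 p110 libraries and 166, 153 and 158 CPM in GFP libraries (log2 fold change -0.95, edgeR adjusted p = 3.58e-06). The groups lay far apart. The death receptor FAS and the apoptosis inducer BBC3 fell by 0.55 and 0.51 on the log2 scale. ACTA2, which overlaps FAS on the other strand, held 19.9% as many counts. BBC3 was no longer called when ADAR1 p110 replicate 3 or GFP replicate 1 was left out.

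None of the 13 tested partners and targets of AHR was called by edgeR or limma-voom, with 3 at an unadjusted p under 0.05 and 1 called higher by DESeq2. The abundant AHR chaperone HSP90AB1 had 1940 ± 56.8 CPM with ADAR1 p110 and 2086 ± 15.1 CPM with GFP. The list median was -0.03. Among 6 tested genes set beside METTL7A, the methyltransferases TPMT, METTL14, METTL3 and NNMT had log2 fold changes between -0.05 and 0.05. The one gene that rose was ATOH8, a transcription factor and no methyltransferase, with 3.74 ± 0.0737 CPM in ADAR1 p110 libraries and 2.32 ± 0.289 CPM in GFP libraries (log2 fold change 0.69, edgeR adjusted p = 0.00806). Of all tested genes 1.95% rose by edgeR. The list median was -0.02, or 0.0077 with scaling by library size alone. METTL7B, the nearest relative of METTL7A, had 48 counts over all libraries and was not tested.

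Of 16 nucleoporins 1 fell and none rose, beside 2.96% and 1.95% of all tested genes. The list median was -0.03. The one that fell was NUP153, of the nuclear basket, with 315 ± 11.2 CPM in ADAR1 p110 libraries and 364 ± 8.40 CPM in GFP libraries (log2 fold change -0.21, edgeR adjusted p = 0.0378). That call was lost without ADAR1 p110 replicate 2 or 3, without any single GFP replicate, with scaling by library size alone and with the replicate number as a block. Of 16 junction genes around F11R 2 fell and none rose, beside 2.96% and 1.95% of all tested genes. The median of these junction genes was -0.07. The tight junction protein CLDN1 stood at 2.79 ± 0.32 CPM with ADAR1 p110 and 6.24 ± 0.685 CPM with GFP (log2 fold change -1.16, edgeR adjusted p = 0.000301). The junction linker CGN stood at 6.70 ± 0.617 CPM with ADAR1 p110 and 9.02 ± 0.66 CPM with GFP (-0.43, edgeR adjusted p = 0.0254), a call lost without ADAR1 p110 replicate 2 or 3 or GFP replicate 1 or 3. JAM2 and JAM3, relatives of F11R, had 3 and 10 counts over all libraries.

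None of the 18 other genes of the 20S proteasome core and its assembly was called by edgeR, DESeq2 or limma-voom, and 2 were lower at an unadjusted p under 0.05. Their median log2 fold change was -0.07, or -0.04 with library size alone, beside -0.19 for PSMB2 (-0.17 with library size alone). The most abundant of them, PSMA7, had 366 ± 24.7 CPM with ADAR1 p110 and 360.1 ± 5.51 CPM with GFP. With both ADAR1 p110 replicate 1 and GFP replicate 2 left out, 3 of the 18 were called lower. That fit called 1424 of all 19465 tested genes lower.

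**Figure D5:**
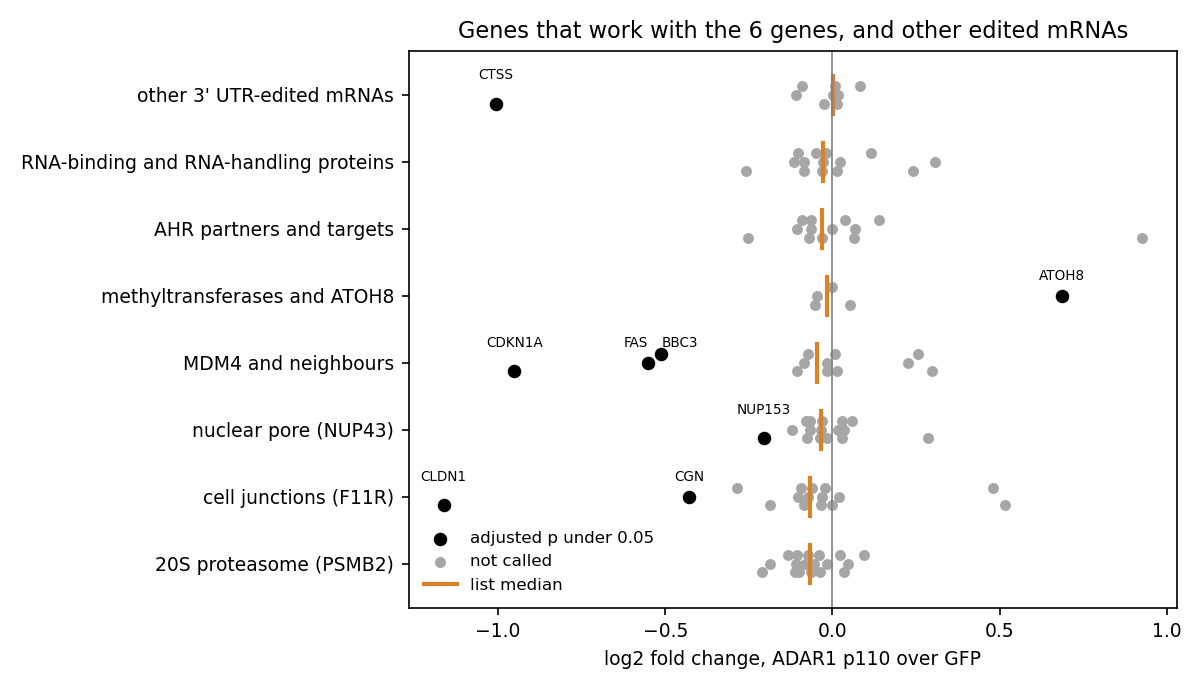
Log2 ratio of ADAR1 p110 to GFP levels along the horizontal axis for the genes of 8 lists that are reported here, 1 point per gene, with called genes in black and named, other genes in grey and the median of all tested genes of the list as an orange bar; vertical offsets within a list only part the points. CTSS, CDKN1A and CLDN1 lie near or below -0.95, and all list medians lie between -0.07 and 0.00055.

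The 6 genes are among 976 tested genes that had Alu-like elements on both strands of the 3′ UTR. Of them 18 rose and 30 fell by edgeR, or 1.84% and 3.07%, METTL7A being among the 18. Over all 13546 tested genes with an annotated 3′ UTR the shares were 2.45% and 3.88%. They were 2.27% and 4.28% over the 2638 genes with elements on 1 strand, and 2.56% and 3.85% over the 9932 genes with no such element. The median log2 fold change was 0.00025 with elements on both strands, -0.008 with elements on 1 strand and -0.0021 with none. The quartiles with elements on both strands were -0.08 and 0.08. The classes also differ in 3′ UTR length, with medians of 4506, 2599 and 1057 bases.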

How the data were processed

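Total RNA of 6 libraries was analysed, 3 per group. Per the submitters' processing notes and the series' design text, STAR 2.5.2a served as aligner, hg19 as genome and featureCounts 1.5.1 as the authors' gene counter; the library kit was stranded, per the labels' protocols. The deposited values are raw counts in 1 table. The strand setting, the treatment of reads with several alignments, which Alu repeats produce, and of duplicates is not given in the sources used here.

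Libraries held 72741235 to 99589278 counts. Genes were kept by filterByExpr (minimum count 10), scaled by TMM and tested across all 18899 genes with the quasi-likelihood test of edgeR 4.0.16 in R 4.3.3, group being the only term, with Benjamini-Hochberg adjustment and calls under 0.05. The SE is the log2 fold change divided by the square root of F. Intervals are 95%. The tests were checked on simulated counts. Alternatives were other scalings, no filter, DESeq2 1.42.0, limma-voom (limma 3.58.1), a block for the replicate number, a table without ADAR and leaving out libraries.

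Longest 3′ UTRs of GENCODE v44 mapped to GRCh37 were searched with blastn (BLAST 2.17.0, e-value 1e-05, at least 50 aligned bases, hits within 150 bases joined up to 350) against the RN7SL2 transcript. A symbol with several gene IDs (MATR3) was read from the most abundant.

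The members and lists were chosen with earlier results of these data known. Named were the 6 genes and ADAR, up to 4 called genes per list by smallest p or else the most abundant, and the 2 genes most like each member; others named, such as MDM2, CYP20A1, MAVS, the methyltransferases, METTL7B, JAM2 and JAM3, were picked after their values were seen. Nothing in the labels says that replicate numbers pair the libraries, so the number was used as a block only in an alternative. Sequences of the repeats and a few genes of the lists are not reported here, though counts and medians of lists include those genes.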

Additional observations from a re-analysis of the deposited data

How the results depend on the processing

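Over 14 alternatives METTL7A kept its direction and was called in 9. Its call was lost with the replicate number as a block (log2 fold change 0.32, edgeR adjusted p = 0.0899, 0 genes of the 6 called). It was also lost without ADAR1 p110 replicate 2 and without GFP replicate 1, 2 or 3. The block gave 508 called genes, against 927. Same-numbered libraries correlated at -0.11, -0.03 and 0.04 after removal of group means. These values were not set beside those of libraries with different numbers, so they cannot show whether a number stands for a shared batch. PSMB2 kept its direction and was called in 4 of the 14. It was called without a filter (-0.19, edgeR adjusted p = 0.0469) and with DESeq2 (-0.19, DESeq2 adjusted p = 0.0379). The call was also reached without GFP replicate 2 (-0.23, edgeR adjusted p = 0.0457). The same held with both ADAR1 p110 replicate 1 and GFP replicate 2 left out (-0.22, edgeR adjusted p = 0.00113). In each of these fits 1 gene of the 6 was lower. Calls over all genes numbered 1553 (4.57%) without a filter and 2605 (13.4%) without those 2 libraries, against 927 (4.91%). Of the 110 list genes tested in the main fit, 17 and 21 were called in these fits, against 10. Leaving out 1 library at a time gave 396 to 1812 calls, or 2.06% to 9.19% of all tested genes. Those fits called 6 to 14 list genes, 0 or 1 of the 6 genes higher and 0 or 1 lower. In those fits the log2 fold changes ran from 0.29 to 0.37 for METTL7A, -0.23 to -0.16 for PSMB2, -0.16 to 0.0783 for AHR (positive without ADAR1 p110 replicate 2 or 3, at 0.0028 and 0.0369, and without GFP replicate 2, at 0.0783), 0.03 to 0.16 for MDM4, -0.12 to -0.03 for F11R and -0.0038 to 0.0351 for NUP43, the last being negative without ADAR1 p110 replicate 3. The cause was not tested. AHR, MDM4, NUP43 and F11R were called in none of the 14. The 6 genes had 655 counts or more in each library.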

Other observations

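Among the called genes with Alu-like elements on both strands of the 3′ UTR, the 5 largest falls and the 5 largest rises were picked after their values were seen (log2 fold change in brackets, edgeR adjusted p under 0.05 for each). The falls were in TNFRSF9 (-2.64), a costimulatory receptor, ICOSLG (-2.04), a costimulatory ligand, TNFSF15 (-1.17), a cytokine of the tumour necrosis factor family, SSTR2 (-1.06), a somatostatin receptor, and CTSS (-1.01). The rises were in RNFT2 (0.63), MYADM (0.50), ARPIN (0.40), an inhibitor of the Arp2/3 complex, EXOSC6 (0.38), a subunit of the RNA exosome, and GAS2L3 (0.36). Genes that did not pass the test include some with estimates beyond those of some named genes, in either direction. Examples are PARVB (1.17, mean 0.117 CPM) and FAM71F2 (-1.21, mean 0.28 CPM). Of the named genes, ICOSLG averaged 1.35 CPM and RNFT2 3.23 CPM.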
